A study of Mus musculus with 2 samples.

Results

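Cycling cells are cells that prepare for division or pass through it. The cells described here were those periosteal cells that carried at least 2 of 6 transcripts used between the start of DNA replication and the end of mitosis, which is a part of the cycle. A cell was taken as cycling when it had at least 500 detected genes, less than 25% mitochondrial molecules, and a unique molecular identifier (UMI, a tag that marks each captured mRNA molecule) of at least 2 of *Mki67*, *Top2a*, *Cdk1*, *Cdc20*, *Ccnb1* and *Birc5*. This rule found 91 cells among 12233 cells that met the quality limits, a share of 0.744% (exact binomial 95% interval 0.599 to 0.913%). Of the 91 cycling cells, 67 lay in blood cell clusters and 24 in the clusters of skeletal, fibroblast and vessel cells. The members were chosen by the measured UMIs of these 6 genes, so their levels are given as a description only. The other cell cycle genes belong to the same programme and are described in the same way.

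A dividing cell first copies its DNA and then separates the copies. During replication the MCM helicase opens the double strand, ribonucleotide reductase and thymidylate synthase supply nucleotides, and the sliding clamp Pcna holds the polymerases on the template. Before mitosis the cell accumulates cyclins A and B, builds a spindle of tubulin and kinesins, and assembles kinetochores on its centromeres, and the anaphase promoting complex then destroys the cyclins. In adult periosteum, the sheath around bone, most stem and progenitor cells are known to divide rarely until the bone is injured, whereas blood cell precursors of the marrow divide continuously.

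Periosteum of the femur and tibia was taken from mice aged 8 weeks and sorted for Prrx1-Ai9+ cells, so that the control cells were Prx1 Cre; Ai9/+ and the others Prx1 Cre; Ai9/+; Piezo1 fl/fl. Mice of both genotypes thus carried the same Cre, driven by *Prrx1* regulatory sequence active in limb mesenchyme, and the Ai9 reporter, and the groups differed in the floxed *Piezo1*, which codes for a mechanically gated ion channel. There was 1 library per genotype, and the number of mice pooled in each is not given in the sources used here. No test between genotypes was therefore possible, genotype and library cannot be told apart, and every interval covers counting error only.

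The control library held 6118 barcodes and the Piezo1 fl/fl library 7469, with 28030299 and 32337308 UMIs in total. The limits retained 5485 and 6748 cells. Of these, 622 control cells (11.3%) and 1146 Piezo1 fl/fl cells (17.0%) lay in blood clusters, although Prrx1-Cre is known for activity in limb mesenchyme and not in blood. A cluster led by neutrophil genes such as *S100a8* and *S100a9* held 74 of the control and 519 of the Piezo1 fl/fl blood cells. RNA from outside the cell was visible in both libraries. *S100a8* had a UMI in 1.61% of non-blood control cells and 9.21% of non-blood Piezo1 fl/fl cells outside the rule, and the collagen gene *Col1a1* in 94.5% and 81.4% of the blood cells outside it. The libraries shared 50 barcodes, and 0 of these belonged to cycling cells. Scrublet called 46 and 67 cells as doublets, of which 1 was a cycling cell of the Piezo1 fl/fl library.

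*Mki67*, which codes for a protein that coats mitotic chromosomes, and *Top2a*, the topoisomerase that untangles replicated DNA, had the most UMIs of the 6 genes. *Mki67* had 945 UMIs in 82 of the 91 cells, or 1189 CPM (counts per 1000000 UMIs, Poisson 95% interval 1115 to 1268), against 1.88 CPM in all other retained cells. *Top2a* had 1161 UMIs in 83 cells, or 1461 CPM against 1.78 CPM. These 91 cells held 1.34% of the UMIs of retained cells, but 89.6% of the *Mki67* and 91.8% of the *Top2a* UMIs. *Cdk1*, the kinase that drives entry into mitosis, had 330 UMIs in 70 cells, and *Birc5*, a subunit of the chromosomal passenger complex that corrects spindle attachments, had 321 UMIs in 65 cells. The late genes were sparser. *Ccnb1*, the cyclin B1 that activates Cdk1, had 147 UMIs in 38 cells, and *Cdc20*, the activator of the anaphase promoting complex, had 88 UMIs in 40 cells. *Cdc20* was also the gene with the smallest part of its UMIs in the cycling cells, 72.7%.

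The cells differed widely in how firmly the 6 genes marked them. All 6 genes were detected in 10 of 31 control and 20 of 60 Piezo1 fl/fl cycling cells. Exactly 2 were detected in 1 control cell and in 16 Piezo1 fl/fl cells. The median cycling cell held 36 UMIs of the 6 genes in the control library and 11 in the Piezo1 fl/fl library, and the highest held 284 and 163. These cells also differed in depth, with medians of 8143 and 5977 UMIs in all. At the low end, 2 control and 10 Piezo1 fl/fl cells had no more than 1 UMI of each gene that marked them. Low values were more frequent among Piezo1 fl/fl cells, with 20 of 60 cells at 5 or fewer UMIs of the 6 genes against 2 of 31 in the control library.

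**Figure D1:**
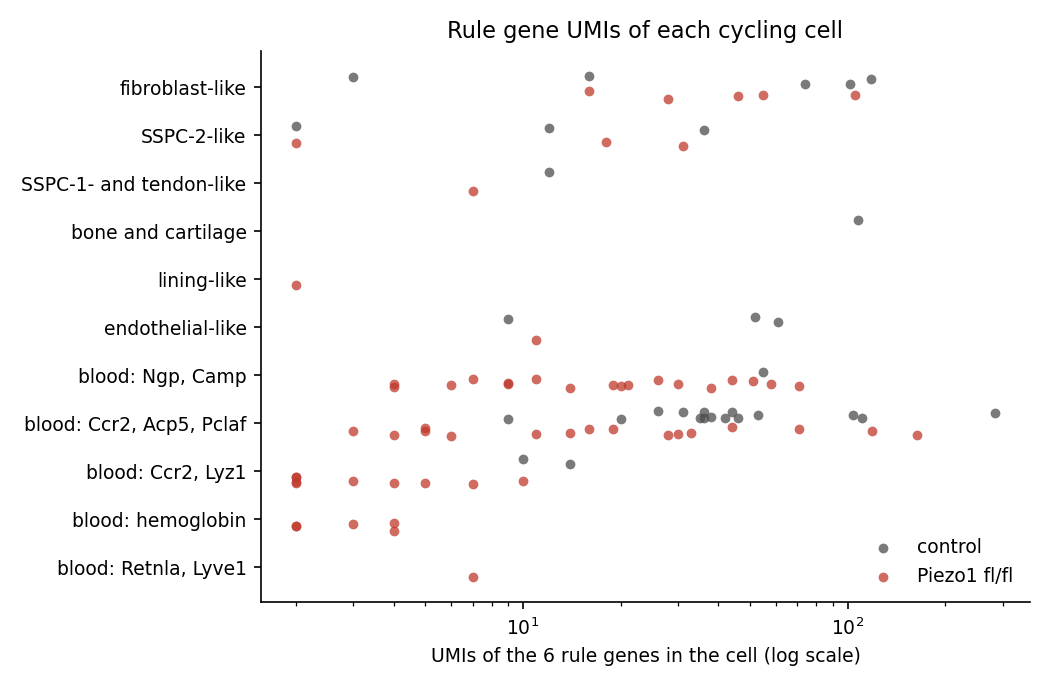
UMIs of the 6 genes in each cycling cell (horizontal axis, log scale), with 1 point per cell, by class or blood cluster (rows) and library (colour). Control cells range up to 284 UMIs with a median of 36, and Piezo1 fl/fl cells up to 163 with a median of 11, with the low values mostly among Piezo1 fl/fl blood cells.

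Just inside the threshold stood 17 cells with 2 genes, which held 2 UMIs in the control cell and a median of 2.5 UMIs, with a range of 2 to 14, in the Piezo1 fl/fl cells. Just outside stood 123 control and 167 Piezo1 fl/fl cells with 1 gene, and 102 and 140 of these had a single UMI. The highest cells outside were a control fibroblast-like cell with 7 UMIs of *Mki67* and a Piezo1 fl/fl lining-like cell with 15 UMIs of *Ccnb1*. That lining-like cell had 0 of 6 other mitotic genes (*Ube2c*, *Tpx2*, *Cenpf*, *Nusap1*, *Prc1* and *Ccna2*) among its 15886 UMIs.

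**Figure D2:**
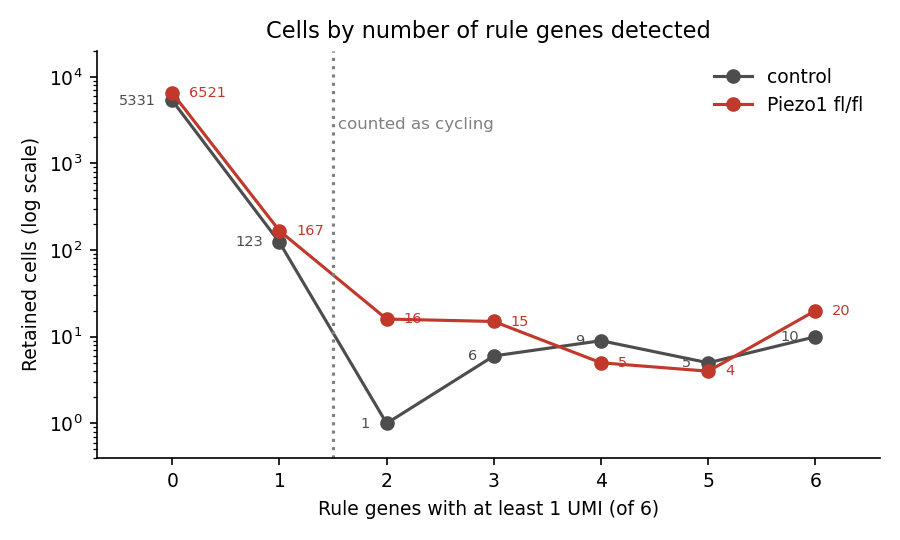
Number of retained cells (vertical axis, log scale) by how many of the 6 genes had a UMI (horizontal axis, 0 to 6), for each library. Cells with 0 genes number 5331 and 6521, cells with 1 gene 123 and 167, and cells with all 6 genes 10 and 20, and the control library has 1 cell at exactly 2 genes against 16 in the Piezo1 fl/fl library.

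The 6 other mitotic genes, which the rule did not use, marked most of the same cells. At least 2 of them had a UMI in 28 of 31 control cycling cells (90.3%) and in 36 of 60 Piezo1 fl/fl cycling cells (60%). In retained cells outside the rule, 17 of 12142 cells (0.14%) reached that mark. Those 17 were 11 control cells, all of them non-blood, and 6 Piezo1 fl/fl cells, 4 of them blood cells. By these 6 genes the libraries held 39 of 5485 and 42 of 6748 cycling cells, or 0.711% and 0.622%.

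Many genes of replication and mitosis share short promoter elements, namely the CHR element bound by the DREAM and B-Myb complexes, the CCAAT box bound by NF-Y, and E2F sites. The promoter sequences of the 3 marker genes with the most matches to these elements are shown for that reason, and not all 6 marker genes carry them. The windows are the 250 bases before the transcription start in RefSeq (GRCm38.p6), 5′ to 3′ on the strand of the gene, and capitals mark CHR letters (TTTGAA or TTCGAA) and CCAAT letters on either strand. *Top2a* (minus strand, window chr11:99024190-99024439, gene at chr11:98992943-99024189) held 4 CHR and 6 CCAAT matches. *Mki67* (minus strand, window chr7:135716380-135716629, gene at chr7:135689784-135716361) held 2 and 3. *Cdk1* (minus strand, window chr10:69352913-69353162, gene at chr10:69335146-69352938) held 2 and 3, and its window overlaps the end of the longer GENCODE gene model.
Top2a: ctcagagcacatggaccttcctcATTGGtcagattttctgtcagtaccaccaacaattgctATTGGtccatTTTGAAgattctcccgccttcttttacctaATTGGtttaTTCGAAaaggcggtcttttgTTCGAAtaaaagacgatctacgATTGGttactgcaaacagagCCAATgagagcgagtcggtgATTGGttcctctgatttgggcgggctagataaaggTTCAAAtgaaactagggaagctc
Mki67: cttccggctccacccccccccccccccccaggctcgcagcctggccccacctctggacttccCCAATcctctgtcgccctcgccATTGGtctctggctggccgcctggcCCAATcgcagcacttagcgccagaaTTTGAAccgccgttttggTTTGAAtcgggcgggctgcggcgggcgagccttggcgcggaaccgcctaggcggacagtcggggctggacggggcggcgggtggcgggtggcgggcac
Cdk1: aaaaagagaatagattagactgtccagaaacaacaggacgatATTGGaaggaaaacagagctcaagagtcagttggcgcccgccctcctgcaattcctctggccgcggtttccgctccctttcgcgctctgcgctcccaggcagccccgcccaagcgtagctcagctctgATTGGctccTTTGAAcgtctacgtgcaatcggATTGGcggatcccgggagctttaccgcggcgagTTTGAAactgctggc

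Of the other marker genes, *Cdc20* held 1 CHR and 2 CCAAT matches, *Ccnb1* held 2 CCAAT matches and *Birc5* held 0 of either in its window. CHR letters thus stood in 4 of 6 windows and CCAAT letters in 5 of 6, against 17.1% and 33.8% of all 32851 promoter windows. Among 124 windows of 108 genes from 11 cell cycle lists, CHR letters stood in 29%, CCAAT in 65.3% and an E2F-type match (TTTGGCGC, TTTGCCGC, TTTCGCGC or TTTCCCGC on either strand) in 14.5%, against 1.86% of all windows for the last. Windows of replication genes held CHR in 13.5% and E2F-type letters in 27% of 37 windows, and windows of mitosis genes held them in 32.7% and 3.64% of 55 windows. Single lists did not all follow these totals, with CHR in 30% of origin licensing and 14.3% of kinetochore windows and E2F-type letters in 0% of nucleotide supply windows, and the difference was not tested. These matches describe letters in the windows and are not evidence of binding.

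Cycling cells were found at a higher share among blood than among non-blood cells in both libraries. Blood clusters held 18 of 31 control cycling cells (58.1%, exact binomial 95% interval 39.1 to 75.5%) and 49 of 60 Piezo1 fl/fl cycling cells (81.7%, 69.6 to 90.5%), so that the control interval reaches below an even division. By the 6 other mitotic genes blood held 17 of 39 control cells (43.6%, 27.8 to 60.4%) and 32 of 42 Piezo1 fl/fl cells (76.2%, 60.5 to 87.9%). Within the blood clusters 2.89% of control cells (18 of 622, 1.72 to 4.54%) and 4.28% of Piezo1 fl/fl cells (49 of 1146, 3.18 to 5.61%) were cycling. Within the non-blood clusters the shares were 0.267% (13 of 4863, 0.142 to 0.457%) and 0.196% (11 of 5602, 0.0981 to 0.351%). The intervals of blood and non-blood cells did not overlap in either library. Blood cells were the shallower class, with medians of 2664 and 2196.5 UMIs against 4293 and 4039.5 UMIs in non-blood cells. Thinning to 2500 UMIs left out the cells below that depth, 928 of 1768 blood and 2670 of 10465 non-blood cells. Of the blood cells kept, 4.52% in the control (15 of 332) and 5.71% in the Piezo1 fl/fl library (29 of 508) were cycling. Among the non-blood cells kept, the shares were 0.245% (9 of 3669) and 0.145% (6 of 4126).

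These shares depend on how the clusters were built, since the cell cycle genes were left out of the clustering. With those genes kept in, 93.5% of control and 93.3% of Piezo1 fl/fl cycling cells fell in blood clusters, and 2 and 4 cycling cells remained outside them. The lineage markers of single cells do not depend on that choice. Each of the 67 blood-cluster cells had at least 1 UMI of the 5 general blood genes (*Ptprc*, *Coro1a*, *Laptm5*, *Cd52* and *Tyrobp*), with a median of 26 and a highest value of 200. Of the 24 non-blood cells, 21 had none, and the other 3 had 1, 4 and 9.

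**Figure D3:**
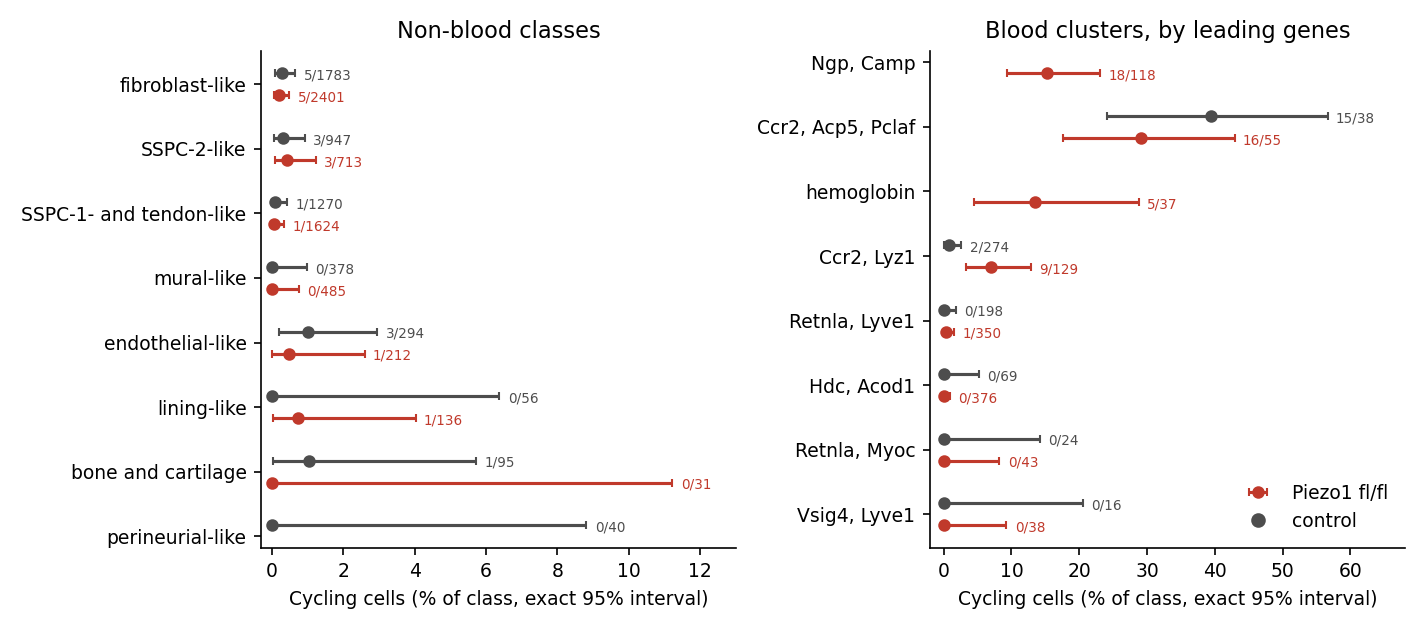
Share of cells that were cycling (horizontal axis, percent) in each non-blood class (left) and blood cluster (right) of at least 10 cells, by library, with exact binomial 95% intervals that cover counting error only. The non-blood classes reach at most 1.05%, while the *Ccr2*-, *Acp5*- and *Pclaf*-led blood cluster stands at 39.5% and 29.1% and the *Ngp*- and *Camp*-led cluster at 15.3% in the Piezo1 fl/fl library.

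The largest group of cycling cells was macrophage-and-monocyte-like. This class, named from complement C1q genes, *Csf1r*, *Mrc1* and related markers, held 18 cycling cells of 548 in the control library (3.29%, 1.96 to 5.14%) and 30 of 627 in the Piezo1 fl/fl library (4.79%, 3.25 to 6.76%). In the control library it was 1 cluster. In the Piezo1 fl/fl library it was 2, and 29 of the 30 cycling cells lay in the one led by the antigen presentation genes *Cd74*, *H2-Eb1* and *H2-Aa*. When the blood cells of both libraries were clustered together, most of these cells gathered in a cluster of 38 control and 55 Piezo1 fl/fl cells led by the monocyte chemokine receptor *Ccr2*, the acid phosphatase *Acp5* and the replication factor *Pclaf*. In this cluster 15 control (39.5%, 24.0 to 56.6%) and 16 Piezo1 fl/fl cells (29.1%, 17.6 to 42.9%) were cycling. Its best match in the naming step was the set of the 6 cycling genes itself, so it was given no cell type name. *Top2a*, *Ccna2* and *Ube2c* were also among its leading genes, and *Pclaf* was not among the genes left out of the clustering. The shares above are thus those of a cluster that is itself marked by cell cycle genes.

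Cycling was uneven across other blood clusters, and the next 3, known here by their leading genes, matched no cell type in the naming step. A *Ccr2*- and *Lyz1*-led cluster held 2 cycling cells of 274 in the control library and 9 of 129 in the Piezo1 fl/fl library. Among these 9 was the cycling cell that Scrublet called a doublet, with 65 UMIs of neutrophil and 28 of macrophage and monocyte markers. A cluster led by *Retnla* and *Lyve1*, genes known in resident tissue macrophages, held 0 of 198 and 1 of 350. A *Vsig4*- and *Lyve1*-led cluster held 0 of 16 and 0 of 38, which allows shares of up to 18.8% and 7.89%. Another 5 cycling cells lay in a cluster of 37 Piezo1 fl/fl cells led by hemoglobin genes, *Vcam1* and *Cd5l*. This cluster matched erythroid markers best and had no control cell. Those 5 cells had 2 to 4 UMIs of the 6 genes, and 0 of the 5 reached 2 of the 6 other mitotic genes. Except for the deepest, they were led by macrophage and monocyte markers, with 366, 296, 294 and 66 UMIs. Of erythroid markers these cells had 31, 3, 23 and 8 UMIs. The deepest of the 5 held 2616 UMIs of erythroid markers and 3 UMIs of the 6 genes among 31499 UMIs. It also held 1119 UMIs of neutrophil, 741 of macrophage and monocyte and 104 of osteoclast markers, so its lineage is unclear, and Scrublet did not call it a doublet.

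The macrophage-and-monocyte-like cycling cells of both libraries differed in the strength of their marking. Their median was 37 UMIs of the 6 genes in the control library and 5 in the Piezo1 fl/fl library. No control cell and 16 of 30 Piezo1 fl/fl cells had 5 or fewer, and 4 of those 16 carried at least 2 of the 6 other mitotic genes. The deepest control cell, with 54749 UMIs, alone gave 28.6% of the control class's UMIs of the 6 genes.

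Single cells stood out among them by leading markers of other kinds. Osteoclast genes led in 1 control and 3 Piezo1 fl/fl cells, which had 361, 152, 88 and 34 UMIs of *Acp5*, *Atp6v0d2*, *Mmp9*, *Dcstamp* and *Ocstamp*, genes of the bone-resorbing cell and its fusion. The cathepsin K gene *Ctsk* had 592, 223, 188 and 2 UMIs in the same cells, and the first 3 of them carried all 6 cycling genes. Dendritic markers led in 2 control and 2 Piezo1 fl/fl cells, with 28, 16, 8 and 4 UMIs of *Cd209a*. Most of their dendritic marker UMIs were of the antigen presentation gene *H2-Ab1*, with 183, 95, 139 and 87. A cycling cell led by macrophage markers had 139 UMIs of *H2-Ab1* as well. *Cd209a* was also among the leading genes of the *Retnla*- and *Lyve1*-led cluster, so the kind of these cells is unclear. B cell lineage genes led in 1 Piezo1 fl/fl cell, with 17 UMIs of the B cell factor *Pax5*, 20 of *Vpreb3* and 4 of *Vpreb1*, both known from precursor B cells, and 28 UMIs of the 6 genes. Neutrophil lineage genes led in 1 control cell and 1 Piezo1 fl/fl cell of this class.

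The second group was of the neutrophil lineage and came almost wholly from the Piezo1 fl/fl library. A blood cluster led by *Ngp*, *Camp* and *Ltf*, which code for secondary granule proteins made by myelocytes and metamyelocytes, held 118 Piezo1 fl/fl cells, of which 18 were cycling (15.3%, 9.30 to 23.0%), and 3 control cells, of which 1 was cycling. Cells led by genes of more mature neutrophils (*Hdc*, *Acod1*, *Il1f9* and *G0s2*) held 0 cycling cells of 69 and 0 of 376. Over both libraries that is 0 of 445, which allows a share of up to 0.674%. These cells were shallow, with a median of 1541 UMIs, and after thinning 46 of the 445 were deep enough to be counted, again with 0 cycling.

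The 18 cycling cells of the *Ngp*- and *Camp*-led cluster had a median of 19.5 UMIs of the 6 genes, with a range of 4 to 71, and 7 had all 6 genes. Their neutrophil marker UMIs ran from 170 to 2876. Primary granule genes, which are transcribed at the earlier promyelocyte stage, were concentrated in few of them. *Mpo* had 210 UMIs in 1 of these cells, 51 in the next and 12 in a further one, and *Elane* had 266, 70 and 17 in the same 3. The control cell of this kind had 172 UMIs of *Mpo* and 194 of *Elane* together with 57 UMIs of fibroblast markers among its 21683 UMIs, and Scrublet did not call it a doublet.

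Outside blood, 24 cycling cells were spread over 6 classes, and most classes held 1 to 5 in a library. Fibroblast-like cells (*Dpt*, *Pi16*, *Clec3b*) held 5 of 1783 in the control library (0.280%, 0.0911 to 0.653%) and 5 of 2401 in the Piezo1 fl/fl library (0.208%, 0.0677 to 0.485%). SSPC-2-like cells, the skeletal progenitors with osteoblast precursor genes such as *Postn*, *Tnn* and *Mmp13*, held 3 of 947 (0.317%, 0.0654 to 0.923%) and 3 of 713 (0.421%, 0.0869 to 1.23%). SSPC-1-like and tendon-like cells, treated as 1 class because their clusters shared markers, held 1 of 1270 (0.0787%, 0.00199 to 0.438%) and 1 of 1624 (0.0616%, 0.00156 to 0.343%). Endothelial-like cells held 3 of 294 (1.02%, 0.211 to 2.95%) and 1 of 212 (0.472%, 0.0119 to 2.60%). With so few cells the intervals of these classes overlapped within each library.

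Mural-like cells, the smooth muscle cells and pericytes of vessels, held 0 cycling cells of 378 and 0 of 485. Over both libraries that is 0 of 863, which allows a share of up to 0.348%. As many as 15 of the 863 (1.74%) had a UMI of at least 1 of the 6 genes, which is close to the 2.04% of all non-blood cells with at least 1.

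Most fibroblast-like cycling cells carried all 6 genes. All 5 of the Piezo1 fl/fl cells did so, with 16 to 105 UMIs, as did 3 of 5 control cells, and the 5 control cells ranged from 3 to 118 UMIs. A control cell of this class led by SSPC-1 markers had 3 UMIs of the 6 genes but 18 detected replication genes. In the Piezo1 fl/fl library 1 of the 5 was led by tendon genes, with 109 UMIs of them.

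Among SSPC-2-like cycling cells the control cells had 36, 12 and 2 UMIs of the 6 genes beside 288, 86 and 355 UMIs of SSPC-2 markers. The cell with 12 also had 20 UMIs of macrophage markers and 9 of general blood genes. The Piezo1 fl/fl cells had 31, 18 and 2 UMIs of the 6 genes beside 53, 10 and 67 UMIs of SSPC-2 markers. The cell with 18 carried all 6 genes among 2065 UMIs and had 84 UMIs of mature osteoblast markers, the matrix and mineral genes such as *Ibsp* and *Bglap*. It also had 14.0% mitochondrial UMIs, against a median of 4.25% in the cycling cells of its library. The 2 cells with 2 UMIs of the 6 genes rested on 1 UMI of each of 2 genes.

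The SSPC-1-like control cell had 12 UMIs of the 6 genes and 13 of SSPC-1 markers, and 0 of *Angptl7*. The Piezo1 fl/fl cell of that class had 7 UMIs of the 6 genes, 135 of tendon markers and 40 of *Angptl7*. *Angptl7* was among the leading genes of clusters of this class in both libraries, and these 2 were the cycling cells among its 2894 cells. By the 6 other mitotic genes the class held 6 control cells (0.472%, 0.174 to 1.02%) and 0 Piezo1 fl/fl cells.

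The 4 endothelial-like cycling cells had 61, 52 and 9 UMIs of the 6 genes in the control library and 11 in the Piezo1 fl/fl library, with 59, 51, 6 and 49 UMIs of endothelial markers. In the control library 1 cell of the bone and cartilage cluster was a strongly marked cycling cell with cartilage genes. It had 1646 UMIs of *Col2a1*, the collagen of cartilage matrix, 1991 UMIs of chondrocyte markers in all, and 108 UMIs of the 6 genes among 19795 UMIs. The lining-like Piezo1 fl/fl cell had 122 UMIs of lining markers but 1 UMI of each of 2 of the 6 genes, and 0 of the 6 other mitotic genes.

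Replication and mitosis genes were counted in each cell from lists that leave out the 6 genes, 38 genes of origin licensing, nucleotide supply and the replication fork and 60 genes of mitotic kinases, the anaphase promoting complex, the spindle and the kinetochore. The median cycling cell had 9 replication and 25 mitosis genes detected, against 1 and 2 in other retained cells. Cycling cells were also deeper, with a median of 6683 UMIs against 3835.5, and these counts were not adjusted for depth. Medians were 14 and 36 genes in the control library and 6 and 20 in the Piezo1 fl/fl library, where the cycling cells had median depths of 8143 and 5977 UMIs. At least 10 mitosis genes were detected in 71 of 91 cycling cells and in 18 cells outside the rule, and at least 10 replication genes in 43 and in 25. The rule thus left aside more cells with at least 10 replication genes than with at least 10 mitosis genes. Most of its 6 genes are known to act late in the cycle, and whether this bears on these counts was not tested.

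Most cycling cells carried more mitosis than replication genes, which is also the direction the longer mitosis list gives. Mitosis genes were the more numerous in 74 cells, replication genes in 14, and the numbers were equal in 3. Of the 14 cells with more replication genes 13 were blood cells and 1 was a control fibroblast-like cell. Among these were 5 of the 18 cycling Piezo1 fl/fl cells of the *Ngp*- and *Camp*-led cluster, and the clearest of them had 25 replication genes and 9 mitosis genes. Non-blood cycling cells had medians of 7 replication and 31 mitosis genes, and blood cycling cells 10 and 24.

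**Figure D4:**
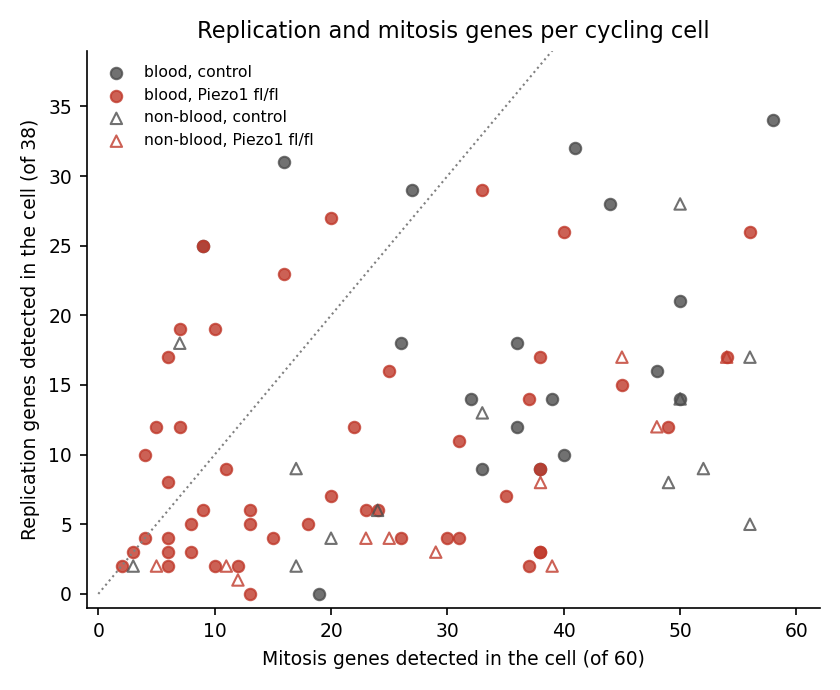
Detected mitosis genes (horizontal axis, of 60) against detected replication genes (vertical axis, of 38) in each of the 91 cycling cells, coloured by library, with circles for blood and triangles for non-blood cells and a dotted line of equal numbers. Values reach 34 replication and 58 mitosis genes, 74 cells have more mitosis than replication genes, and 13 of the 14 cells with more replication genes are blood cells.

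To describe what the cycling cells shared beyond the 6 genes, their summed UMIs were set against those of the other cells of the same class, and a gene was counted when its CPM differed at least 2-fold. In macrophage-and-monocyte-like cells of both libraries (48 cycling against 1127 other cells), 127 of 136 measured genes of the 11 cell cycle lists were at least 2-fold higher and 1 was at least 2-fold lower, with a median log2 ratio of 3.95. Of all 11485 genes with at least 10 UMIs, 15.3% were at least 2-fold higher and 15.2% at least 2-fold lower, with a median log2 ratio of 0.09. By library, the counts were 125 of 132 genes in the control (18.7% of all genes higher) and 110 of 122 in the Piezo1 fl/fl library (14.5% of all genes higher). Part of these counts is fixed by the choice of the cells, because genes of the same programme chose them. The 48 cells also include those led by osteoclast, dendritic, B cell, neutrophil or erythroid markers. Ratios within this class, here and below, thus partly compare cells of different kinds, and how much this adds was not tested.

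Replication genes were higher across all 3 of their lists in these macrophage-and-monocyte-like cells. All 10 measured genes of origin licensing and helicase were at least 2-fold higher, with a median log2 ratio of 2.75. The helicase subunit *Mcm5* had 101 UMIs against 58, a 15.5-fold higher level (exact 95% interval 11.1 to 21.7). All 7 nucleotide supply genes were higher, with a median of 3.79. *Rrm2*, the regulated subunit of ribonucleotide reductase, was 123-fold higher (60.4 to 292), from 111 UMIs against 8. By library it was 277-fold higher in the control (93 UMIs against 3) and 31.7-fold in the Piezo1 fl/fl library (18 against 5). Its partner *Rrm1*, which is less tied to the cycle, was 11.8-fold higher (9.09 to 15.2), with 15.7-fold in control and 7.44-fold in Piezo1 fl/fl cells. All 18 measured replication fork genes were higher, among them *Uhrf1*, which helps to copy DNA methylation, at 42.5-fold (23.6 to 81.8). The clamp *Pcna* was 3.59-fold higher (3.11 to 4.13), since it also had 685 UMIs in the other cells.

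Genes of mitosis were higher too. All 12 measured mitotic kinase and checkpoint genes, all 24 spindle genes and all 16 kinetochore genes were at least 2-fold higher, with median log2 ratios of 5.32, 5.45 and 6.05. The anaphase promoting complex and securin list had a median of 1.49, with 5 of 6 genes higher. The median of the kinetochore list was 5.6 when the 2 genes at 0 UMIs in the other cells were set to their lower bound. *Bub1*, a kinase of the spindle checkpoint, was 249-fold higher (82.2 to 1229), from 84 UMIs against 3, with 164-fold in the control and at least 85.2-fold in the Piezo1 fl/fl library, where the other cells had 0. *Cenpf*, a kinetochore protein, was 178-fold higher (83.9 to 450), and *Tpx2*, a spindle assembly factor, 66.1-fold higher (40.2 to 115). *Ube2c*, the ubiquitin-conjugating enzyme of the anaphase promoting complex, was 148-fold higher (80.6 to 301), with 183 UMIs in 29 of the 48 cells, at least 179-fold in the control and 98.6-fold in the Piezo1 fl/fl library. *Pttg1*, the securin that inhibits separase, was the list's exception at a log2 ratio of -0.17. Tubulins, which all cells use, differed less, with *Tubb5* at 5.64-fold (5.06 to 6.28).

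Of the cyclins and their kinases 8 of 12 were at least 2-fold higher, 10 of 12 in the control and 6 of 10 in the Piezo1 fl/fl library. *Ccna2*, the cyclin of replication and mitotic entry, had 161 UMIs in 30 cycling cells against 2 UMIs in all 1127 others (714-fold, 195 to 5949.9), which was at least 239-fold in the control and 357-fold in the Piezo1 fl/fl library, and *Ccnb2* was 65.1-fold higher (35.4 to 131). The D-type cyclins, which act in G1 before the rule's genes are made, were not all higher, and the libraries differed. *Ccnd1* was 1.66-fold higher (1.16 to 2.31) over both, 2.26-fold (1.45 to 3.41) in the control and 1.04-fold (0.538 to 1.86) in the Piezo1 fl/fl library. *Ccnd2* had a ratio of 0.594 (0.327 to 1.00), and *Ccnd3*, the 1 gene at least 2-fold lower, had 2 UMIs against 48, a ratio of 0.370 with an interval of 0.0435 to 1.41 that includes equality, and in the control library alone its ratio was 0.895. All 17 chromatin and condensin genes were higher, with *Hmgb2*, a chromatin protein, at 9.99-fold (8.72 to 11.5) and the condensin subunit *Smc4* at 6.58-fold (5.82 to 7.44). Of 6 measured replication dependent histones 5 were higher, *Hist1h1b* at 68.8-fold (24.3 to 268) with 112-fold in control and 26.5-fold in Piezo1 fl/fl cells, while the linker histone *Hist1h1c* had 61 UMIs against 781, a ratio of 0.693 that was 0.383 in control and 0.941 in Piezo1 fl/fl cells. Most such histone mRNAs lack a poly(A) tail, and capture here was by poly(A). Of the cell cycle transcription factors 5 of 8 were higher, with *Foxm1*, the factor of mitotic genes, at 102-fold (25.2 to 893), from 23 UMIs against 2, and *Myc* at 1.98-fold, from 69 UMIs against 309.

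**Figure D5:**
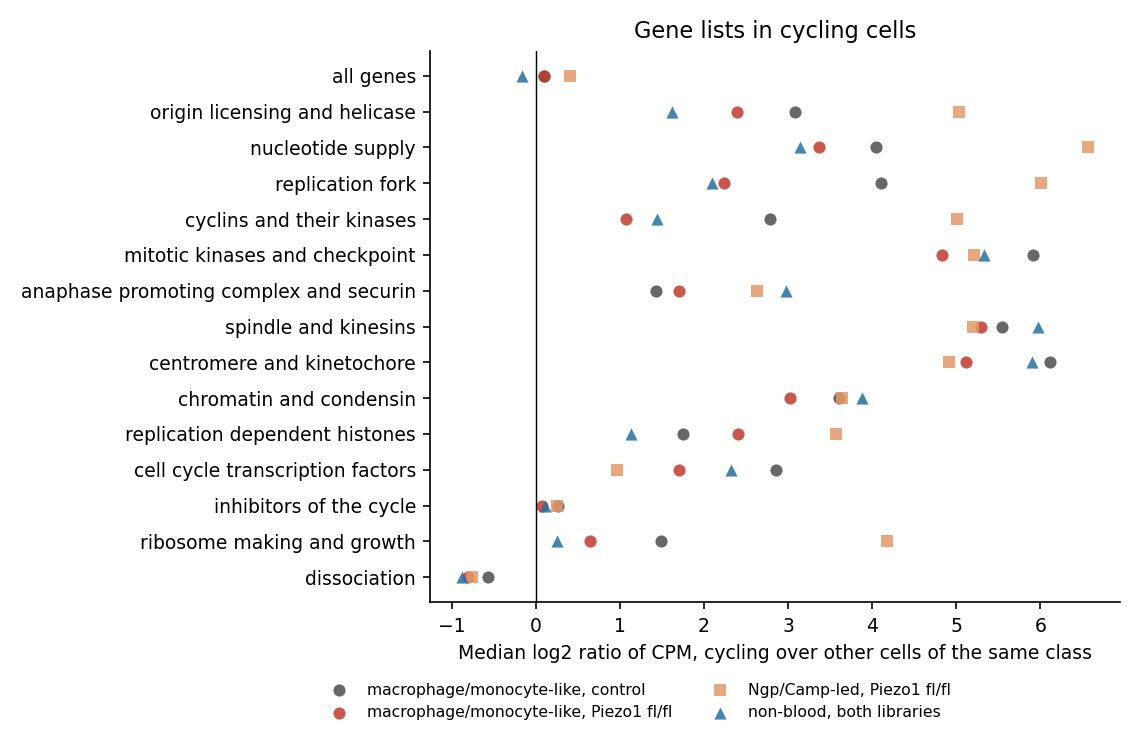
Median log2 ratio of each gene list in cycling cells over other cells of the same class (horizontal axis), for the macrophage-and-monocyte-like class of each library, the *Ngp*- and *Camp*-led blood cluster and the non-blood cells, with a point per list and comparison. Spindle genes stand at 5.54, 5.29, 5.2 and 5.97 in that order, while the inhibitors stand at 0.26, 0.07, 0.25 and 0.11 and the dissociation genes at -0.57, -0.81, -0.76 and -0.88.

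In the *Ngp*- and *Camp*-led cluster of the Piezo1 fl/fl library (18 cycling against 100 other cells), 75 of 80 measured cell cycle genes were at least 2-fold higher and 1 was at least 2-fold lower. Of the 80 genes, 27 had 0 UMIs in the other cells and so reached 10 UMIs through the cycling cells alone, which fixes their direction. The median log2 ratio was 4.78, or 3.83 with such genes set to their lower bound. Here 33.6% of all 4028 genes with at least 10 UMIs were at least 2-fold higher and 17.4% lower. Genes past 2-fold were thus not confined to the cell cycle lists, but these counts carry no interval. Genes near 10 UMIs can pass 2-fold by counting error. The 18 cycling cells had a median depth of 5342.5 UMIs, against 2995 UMIs for the whole cluster. Many replication genes had 0 UMIs in the 100 other cells. With 0 read as 3 UMIs, *Rrm2* was at least 45.5-fold higher (53 UMIs in 11 cells), *Mcm5* at least 21.5-fold and the tubulin regulator *Stmn1* at least 37.8-fold. Genes of ribosome making were higher as well. All 4 measured genes of that list were higher, with the nucleolar protein gene *Npm1* at 17.5-fold (8.97 to 38.2) and the nuclear transport gene *Ran* at 20.6-fold (9.85 to 49.8). *Lmnb1*, a nuclear lamina gene, was the exception, with 30 UMIs against 418 and a ratio of 0.185 (0.123 to 0.268). In macrophage-and-monocyte-like and non-blood cycling cells the same gene was 11.6-fold (8.77 to 15.5, with 19.1-fold in control and 8.10-fold in Piezo1 fl/fl cells) and 26.9-fold higher.

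The 24 non-blood cells were set against the level expected from the other cells of their own class and library. Of 139 measured cell cycle genes 127 were at least 2-fold higher than expected and 0 were at least 2-fold lower, with a median log2 ratio of 3.5. Of all 14997 genes with at least 10 UMIs, 10.1% were at least 2-fold higher and 15.7% lower, with a median of -0.16. For these ratios 0.5 UMIs were added to both the observed and the expected value. A gene with fewer than 0.5 expected UMIs, such as *Ube2c* or *Cenpf*, thus could not be counted as 2-fold lower. The count of 0 lower is therefore partly fixed by this step, as is the 15.7%, here and below. All 25 spindle genes, all 16 kinetochore genes and all 12 measured mitotic kinase and checkpoint genes were higher, with medians of 5.97, 5.9 and 5.33. *Ube2c* had 160 UMIs (136 to 187) in 18 of the 24 cells against 0.113 expected, and *Cenpf* 166 UMIs (142 to 193) against 0.325. Origin licensing genes had a median of 1.62, against 2.75 in macrophage-and-monocyte-like cells, and *Mcm6* had 9 UMIs (4.12 to 17.1) against 4.39 expected, an interval that reaches below the expected value.

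Inhibitors of the cycle had no common direction. In macrophage-and-monocyte-like cells 3 of 14 were at least 2-fold higher and 2 lower, where 15.3% and 15.2% of all genes were, and in non-blood cells 4 of 15 were higher and 1 lower, where 10.1% and 15.7% of all genes were. Those higher in both were *Cdkn2c*, which blocks Cdk4 and Cdk6, *Rbl1*, a pocket protein that is itself an E2F target, and *Cdkn3*, a phosphatase of Cdk1 and Cdk2 made in late cycle, and in non-blood cells *Cdkn2d* as well. *Cdkn2c* was 5.83-fold higher (3.93 to 8.58) in macrophage-and-monocyte-like cells, and in non-blood cells had 69 UMIs (53.7 to 87.3) against 2.29 expected. *Cdkn1c*, the p57 inhibitor known from resting stem cells, was the 1 inhibitor at least 2-fold lower in both. Non-blood cycling cells had 4 UMIs of it (1.09 to 10.2) in 2 cells against 22.6 expected, and 3 of the 4 UMIs lay in 1 fibroblast-like cell. The macrophage-and-monocyte-like ratio of 0.234 (0.0475 to 0.700) rested on 3 UMIs in 1 cell, and the other gene lower there was *Gas1*, known from growth-arrested cells, at 0.178 (0.0708 to 0.370). Those *Cdkn1c* UMIs were all from the Piezo1 fl/fl library, where the ratio was 0.420 (0.0843 to 1.28), and the *Gas1* UMIs were all from the control, where it was 0.330 (0.131 to 0.692). Both genes stood far higher in the retained cells outside the rule as a whole, at 172 CPM for *Cdkn1c* and 1055 CPM for *Gas1*. In the other macrophage-and-monocyte-like cells they stood at 26.8 and 82.1 CPM. How much of the latter was RNA from non-blood cells was not tested. The p21 and p27 genes *Cdkn1a* and *Cdkn1b* were near equal in macrophage-and-monocyte-like cells, at 1.00 (0.801 to 1.25) and 1.10 (0.842 to 1.42), but *Cdkn1a* was at 1.39 (1.03 to 1.86) in control and at 0.719 (0.502 to 1.00) in Piezo1 fl/fl cells. In non-blood cells *Cdkn1a* had 25 UMIs (16.2 to 36.9) against 44.2 expected and *Cdkn1b* 29 (19.4 to 41.7) against 32.1.

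Ribosome making and growth genes gave a different count in each comparison. At least 2-fold higher were 6 of 10 in macrophage-and-monocyte-like cells, 4 of 4 in the *Ngp*- and *Camp*-led cluster and 1 of 10 in non-blood cells, beside 15.3%, 33.6% and 10.1% of all genes. The 1 gene in non-blood cells was *Ran*, also a spindle regulator, with 128 UMIs (107 to 152) against 36.0 expected. *Npm1* was 2.21-fold higher (2.03 to 2.41) in macrophage-and-monocyte-like cells and had 117 UMIs (96.8 to 140) against 102 expected in non-blood cells. By library the count in macrophage-and-monocyte-like cells was 9 of 10 in the control (18.7% of all genes) and 3 of 10 in the Piezo1 fl/fl library (14.5%). Genes of the early response to tissue dissociation had medians of -0.79, -0.76 and -0.88 in the 3 comparisons, with 1, 5 and 4 of 11 at least 2-fold lower and 0, 2 and 0 higher, beside 15.2%, 17.4% and 15.7% of all genes lower. The factor gene *Egr1* had ratios of 0.418 (0.376 to 0.464) and 0.139 (0.0547 to 0.294) in the blood comparisons and 290 UMIs (258 to 325) against 469 expected in non-blood cells.

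Of the genes outside the lists, those most above the other macrophage-and-monocyte-like cells belonged to precursors of the granulocyte line, and most of their UMIs lay in single cells. *Mpo*, *Elane* and *Prtn3*, primary granule enzymes, had 240, 222 and 213 UMIs in the 48 cycling cells against 1, 3 and 6 in the 1127 others, but 71.7%, 87.4% and 73.7% of these lay in 1 control cell, the one led by neutrophil genes. *Ngp* had 298 UMIs, 98% of them in 1 Piezo1 fl/fl cell, the one with most UMIs of erythroid markers. *Pclaf*, a partner of Pcna at the fork, was spread over 30 cells, with 251 UMIs against 4 and a 557-fold higher level (215 to 2059.9).

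Of the 5 genes most below, *Vsig4* and *Lyve1* also lead unnamed blood clusters that held 1 cycling cell between them, so that their ratios compare cells of different blood clusters. The scavenger receptor *Vsig4* had 0 UMIs in the cycling cells against 1848 in the others, and the hyaluronan receptor *Lyve1* had 7, in 2 cells, against 9359. With 0 read as 3 UMIs, *Vsig4* was at least 69.4-fold lower. *Cd209b* and *Siglech* had 0 against 264 and 259. *Jchain*, a plasma cell gene, had 0 against 533, of which 532 lay in 1 Piezo1 fl/fl cell.

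Between libraries, the share of cycling cells in the Piezo1 fl/fl library was 1.57 times that of the control (exact conditional 95% interval 1.00 to 2.51), and no test was possible with 1 library per genotype. The ratio was 1.48 within blood (0.846 to 2.70) and 0.735 within non-blood cells (0.298 to 1.78), and both intervals include 1. The share of blood cells among retained cells in the Piezo1 fl/fl library was 1.498 times that of the control (1.36 to 1.65). The ratio of all cells turned when the 6 other mitotic genes marked the cells, to 0.875 (0.553 to 1.39). By those genes the ratio was 1.02 within blood (0.551 to 1.96) and 0.395 within non-blood cells (0.167 to 0.868), and the last interval does not include 1. Fibroblast-like and SSPC-2-like cells had ratios of 0.743 (0.171 to 3.23) and 1.33 (0.178 to 9.92), so that a several-fold difference in either direction was within counting error.

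*Piezo1* (chr8:122481698-122551329, minus strand) had 5 UMIs in 4 of 31 control cycling cells and 2 UMIs in 2 of 60 Piezo1 fl/fl cycling cells. Its level in other retained cells was 5.04 CPM (4.24 to 5.96) and 2.24 CPM (1.74 to 2.82). Counts come from the 3′ end of transcripts and the labels do not give the floxed exons, so these values do not check the deletion. By class, 4 of the 7 UMIs were in macrophage-and-monocyte-like cells and 3 in non-blood cells, 2 of them in the cell with cartilage genes.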

How the data were processed

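The authors deposited, for each of 2 libraries, UMI counts per gene and barcode, which are whole numbers without normalization. Submitters' processing notes name fastp, UMI-tools, STAR and Seurat 4.0.3. The genome build, annotation and strand setting of these libraries are not given in the sources used here. Gene identifiers were matched to GENCODE vM21 (31107 of 31253), and 180 cell cycle genes were left out of the clustering features.

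Barcodes with at least 500 genes and under 25% mitochondrial UMIs were retained, without an upper limit on genes, and doublets were called (Scrublet in scanpy 1.11.5, expected rate 0.05) but kept. Each library was clustered alone in Seurat 5.3.0 (R 4.3.3; LogNormalize with a scale factor of 10000, 2000 vst features, 30 principal components of which 20 were used, Louvain at resolution 0.4, seed 0), and blood cells of both libraries were then clustered together in the same way. A cluster was named from at least 3 detected markers (a UMI in at least 10% of cells and a 2-fold higher level than in the median cluster) with a mean log2 ratio of at least 2. These limits were set after the clusters were seen. Cells were thinned to 2500 UMIs where shares were compared at equal depth, which leaves out 3598 shallower cells.

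UMIs were summed over cells and divided by the group's total. Shares carry exact binomial (Clopper-Pearson), levels exact Poisson and ratios exact conditional intervals at 95%, in Python 3.11.15 with scipy 1.17.1. Medians of log2 ratios used genes with at least 10 UMIs and 0.5 UMIs added to both sums, and a 0 was read against a limit of 3 UMIs. With 1 library per genotype there was no test between groups. Scripts were tested on simulated data.

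The cycling cells, gene lists and markers were chosen with earlier results of these data known. Named genes are the 6 that chose the cells, up to 4 members of each list with the most UMIs in cycling cells, members past 2-fold against their list, *Piezo1*, and, for the class with at least 20 cycling cells, the 5 genes with the largest ratio each way if the higher side had 50 CPM and 100 UMIs or more. Not eligible for the last were genes of the lists, of mitochondria, of ribosomes, of hemoglobin and of sex chromosome dosage (*Xist*, Y-linked). *Pttg1*, *Ccnd1*, *Ccnd2*, *Cdkn3*, *Rbl1*, *Cdkn2d* and the markers of single cells were named after their values were seen. Of the alternatives tried, 45 were planned and 1 was added. The markers of 1 non-blood cycling cell are not reported here.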

Additional observations from a re-analysis of the deposited data

Results flagged for a closer look

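Cells outside the quality limits were not used in the comparisons, and some of them carried the cycling genes. In the Piezo1 fl/fl library 7 of 721 such barcodes (0.971%, exact binomial 95% interval 0.391 to 1.99%) had a UMI of at least 2 of the 6 genes, and in the control library 0 of 633 did. All 7 had fewer than 500 detected genes, with 510 to 684 UMIs in all and 2 to 7 UMIs of the 6 genes, and 3 of the 7 had at least 10 UMIs of neutrophil lineage markers. The exact interval of the control share reaches 0.581% and overlaps that of the Piezo1 fl/fl share, and the difference was not tested.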

How the results depend on the processing

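With at least 1 of the 6 genes, 2.81% of control and 3.36% of Piezo1 fl/fl cells were counted, blood cells made up 33.8% and 51.1% of them, and the shares were 8.36% and 10.1% within blood and 2.10% and 1.98% within non-blood cells. With at least 3 genes, 0.652% of Piezo1 fl/fl cells and 3.05% of its blood cells were counted. With 1000 to 5000 genes per cell the share in Piezo1 fl/fl blood was 8.19%, and after thinning 5.71%. By the 6 other mitotic genes the Piezo1 fl/fl share was 0.622%, its blood share 2.79%, and the ratio of the libraries turned to 0.875. With cell cycle genes kept in the clustering, blood clusters held 93.5% and 93.3% of cycling cells, the control blood share was 4.58%, and the non-blood shares were 0.0412% and 0.0715%. With no minimum of UMIs, 129 genes of the *Ngp*- and *Camp*-led cluster were at least 2-fold higher. The causes were not tested. Of the other values that answer a comparison, 118 stayed within their interval or within 1.5 times the count, as did 909 values of single classes and lists, while 71 of that kind moved. Leaving out the deepest cycling cell was chosen after seeing the data. No paired analysis was possible because each genotype has 1 library. For the same reason no replicate could be left out. The number of cycling cells, 0 to 5 a library, limits the non-blood classes, where a several-fold difference would not be seen.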
